A study of Homo sapiens with 6 samples.

Results

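The genes described here encode centrosome and centriole proteins, the CEP proteins and 8 assembly or scaffold factors, in the transcriptomes of 2 related human lung cancer cell lines. They were chosen by name. A gene was taken if its symbol is CEP followed by a number and nothing else, which gave 32 genes, or if it is PLK4, STIL, SASS6, CENPJ, PCNT, CDK5RAP2, NEDD1 or OFD1. That made 40 genes of the 12659 in the expression table, and 38 of them, all but CEP126 and CEP162, had a mean of at least 1 FPKM (fragments per kilobase of transcript, scaled to library size) in either line, as did 11764 genes in all. NCI-H1650Re, whose libraries are labelled post-SCLC (small cell lung cancer), was set against NCI-H1650, an established lung adenocarcinoma line whose libraries are labelled pre-LUAD (lung adenocarcinoma). Each line had 3 libraries of poly(A) RNA. The design text places NCI-H1650Re after a transformation to small cell cancer, and the sources used here do not say how it was derived or whether it is a clone; the cell line field names NCI_H1650 for all 6 libraries. No treatment is labelled.

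A centrosome is built around a pair of centrioles, barrels of microtubules that are copied before each cell division. The kinase PLK4, with STIL and SASS6, starts a new centriole, CENPJ and several CEP proteins lengthen it, and pericentriolar material around it docks the gamma-tubulin rings that seed microtubules. The older centriole carries appendages that anchor it at the cell surface, where it becomes the base of a cilium. Several of these genes are transcribed most strongly in dividing cells, late in the cell cycle.

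All 40 genes were put forward with FPKM values of this comparison already known, so their changes, and the limma calls given for them, are descriptions that support nothing further. Values are FPKM in NCI-H1650Re replicates 1, 2 and 3 and in NCI-H1650 replicates 1, 2 and 3, followed by means ± SD (n = 3 libraries). A log2 change is the mean of log2(FPKM + 1) in NCI-H1650Re minus that in NCI-H1650, with its standard error (SE), and understates the change of low genes. Nothing in the labels says that replicates came from separate cultures, so errors and p-values cover the spread between libraries alone, and that spread may be technical. Estimated depth was 18.1 to 21.6 M fragments in NCI-H1650Re and 17.0 to 22.3 M in NCI-H1650. Pearson correlations between libraries over all tested genes were 0.980 to 0.994 within NCI-H1650Re, 0.988 to 0.997 within NCI-H1650 and 0.959 to 0.970 between the lines. In bulk RNA, fewer cells of a kind, such as cells in mitosis, and less RNA per cell cannot be told apart.

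Promoter sequences describe these genes outside the expression values. RefSeq promoters (GRCh38.p14), each of 300 bases with 250 before and 50 after a gene's start, were found for 36 of the 40 genes. They made 48 promoters, since 10 genes had more than 1. Short words were searched on both strands: the cell cycle homology region (CHR) of late cell cycle genes as TTTGAA or TTCGAA, the NF-Y box as CCAAT, E2F words as TTCCCGC, TTTGGCGC or GGCGGGAA (the last holds the reverse complement of the first), and the ETS word CCGGAAG. The last 200 bases before the start are printed, 5′ to 3′ on the gene's own strand, with every word that lies wholly inside in capitals. CEP55 and CEP164 had the largest rises in level, STIL is an assembly factor that was also higher, and CEP192 holds CHR, NF-Y and E2F words although its level was not higher.

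CEP55: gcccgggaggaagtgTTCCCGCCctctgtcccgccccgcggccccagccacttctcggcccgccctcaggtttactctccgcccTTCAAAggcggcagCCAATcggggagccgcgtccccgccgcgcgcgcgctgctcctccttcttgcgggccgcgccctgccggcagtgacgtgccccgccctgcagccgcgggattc
CEP164: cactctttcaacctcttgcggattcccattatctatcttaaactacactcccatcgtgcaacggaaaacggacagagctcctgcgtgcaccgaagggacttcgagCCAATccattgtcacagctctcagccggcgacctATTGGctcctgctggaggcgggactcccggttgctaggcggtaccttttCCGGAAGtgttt
STIL: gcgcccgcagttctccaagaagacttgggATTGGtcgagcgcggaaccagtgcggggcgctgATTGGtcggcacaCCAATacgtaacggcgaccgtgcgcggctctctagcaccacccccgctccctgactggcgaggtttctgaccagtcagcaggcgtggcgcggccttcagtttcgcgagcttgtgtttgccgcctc
CEP192: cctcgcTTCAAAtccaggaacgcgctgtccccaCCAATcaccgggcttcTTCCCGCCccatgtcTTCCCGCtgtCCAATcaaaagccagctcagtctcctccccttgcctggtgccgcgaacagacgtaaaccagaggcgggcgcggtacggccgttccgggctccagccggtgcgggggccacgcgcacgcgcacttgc

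The CEP55 window is chr10:93496412-93496611 on the plus strand. It holds an E2F word from 185 bases before the start, a CHR on the reverse strand from 116 and a CCAAT box from 102. The CEP164 window, chr11:117327654-117327853 on the plus strand, holds 2 NF-Y boxes, from 95 and 61 bases before the start, and an ETS word from 12, but none of the CHR words. This RefSeq start lies inside the longer gene span of GENCODE 29. STIL, in chr1:47314148-47314347 on the minus strand, has 3 NF-Y boxes, from 171, 138 and 125 bases before the start. CEP192, in chr18:12991162-12991361 on the plus strand, has a CHR from 194 bases before the start, NF-Y boxes from 167 and 126 and E2F words from 151 and 136. A match of letters is a description of the sequence and not a bound site.

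A CHR word was found in 16 of the 48 centrosome promoters, 33.3%, against 11.5% of the 12815 promoters of other tested genes and 16.4% of all 35116 promoters. E2F words were found in 13 centrosome promoters, 27.1%, against 10.7% of other tested promoters and 7.13% of all. The NF-Y box stood in 47.9% of centrosome promoters, against 34.3% of other tested and 34.6% of all. For the ETS word the shares were 20.8% in centrosome promoters, 16.9% in other tested and 10.3% in all. Counted by gene, 15 of the 36 centrosome genes (41.7%) and 15.0% of other tested genes had a CHR word in any promoter. These shares were not tested, and promoters of the same gene overlap in some cases.

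Across the 38 genes with enough signal the changes were small and mostly upward. The log2 change was positive for 30 and negative for 8, a positive share of 78.9% against 54.9% of all tested genes. With median-of-ratios or quantile scaling 29 were positive and 9 negative. The median log2 change was 0.13 for the centrosome genes and 0.03 for all tested genes, with a range of -0.29 to 0.81. By limma with Benjamini-Hochberg adjustment over all tested genes at 0.05, 30.5% of all tested genes were called, 16.6% higher and 13.9% lower in NCI-H1650Re. Of the 38 centrosome genes, 8 were called higher, among them CEP55, CEP164, CEP70, STIL, CEP95, CEP85 and PCNT, and 1 lower (CEP250), 23.7% in all. The libraries of the lines did not overlap for 16 genes on the higher side and 1 on the lower, against 26.3% of all tested genes on the higher side and 21.0% on the lower. Since the genes were put forward with this comparison known, nothing further is read from these counts.

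**Figure D1:**
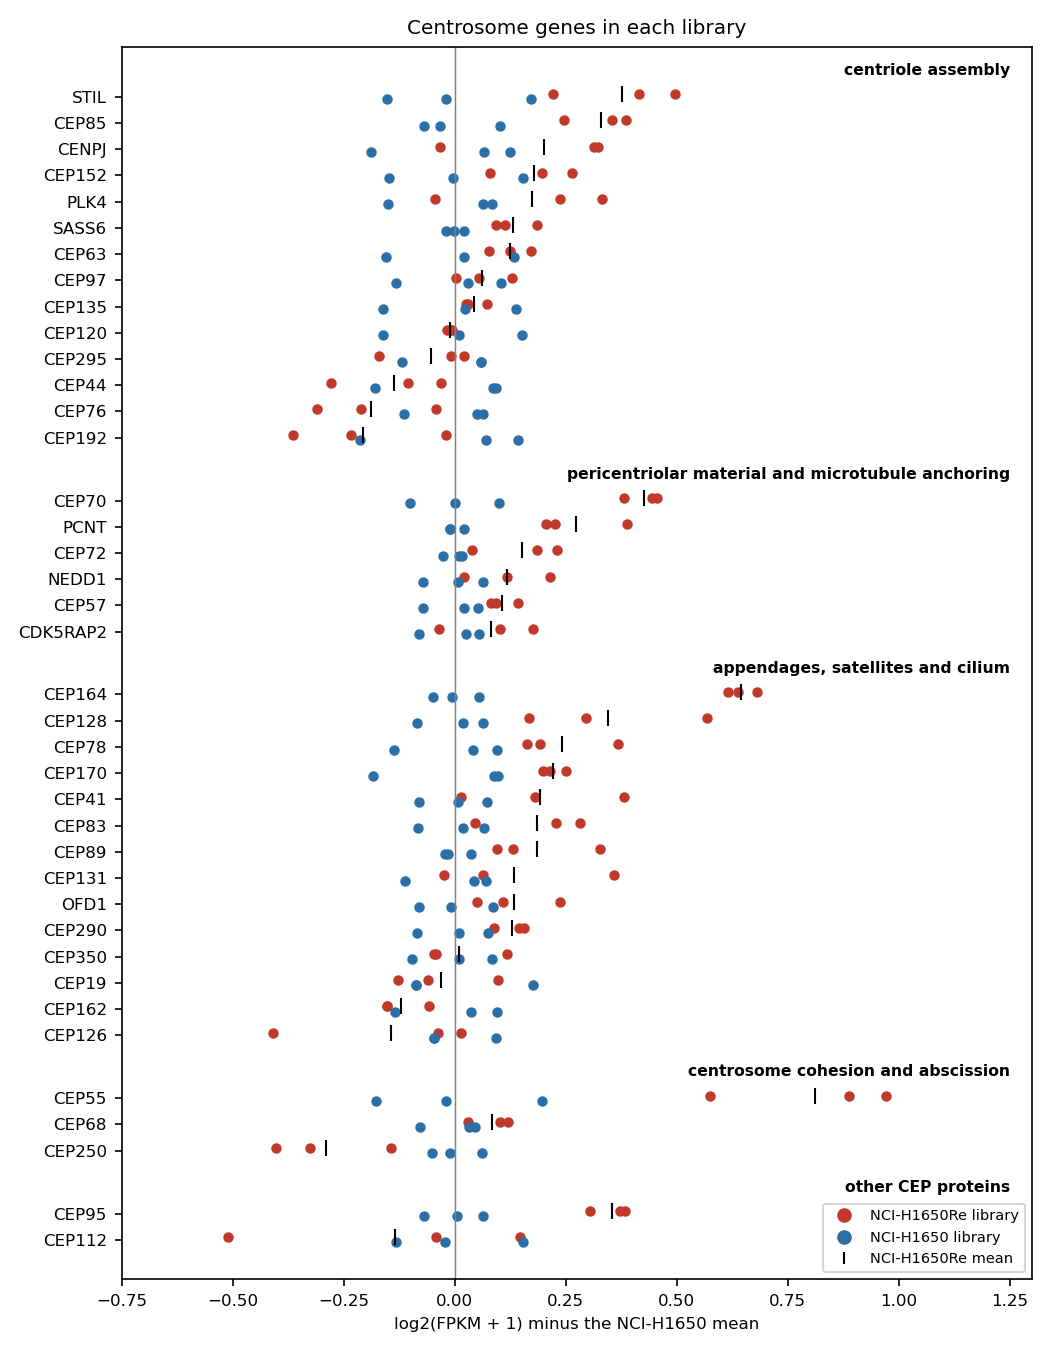
Level of the named centrosome genes in each library, as log2(FPKM + 1) minus the NCI-H1650 mean (x axis), by role. Points are libraries, NCI-H1650Re in red and NCI-H1650 in blue, and ticks are NCI-H1650Re means. CEP55 and CEP164 lie farthest to the right, and CEP250 lies to the left with no overlap between the lines.

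Summed over the 40 genes, levels were 342.1, 323.0 and 293.2 FPKM in the NCI-H1650Re libraries, against 280.3, 269.0 and 247.6 FPKM in the NCI-H1650 libraries (mean 319.5 ± 24.7 in NCI-H1650Re and 265.6 ± 16.6 in NCI-H1650). Every NCI-H1650Re sum lay above every NCI-H1650 sum. Without CEP55, the most abundant of the genes, the sums averaged 268.1 ± 17.5 FPKM in NCI-H1650Re and 236.9 ± 13.0 FPKM in NCI-H1650. The genes are expressed at modest levels: their median of mean FPKM was 5.79, against 8.92 for all tested genes, and 11 of the 40 lay above that value. Their longest annotated transcripts are long, with a median of 5122 bases against 3672 bases over tested genes. Among the 38 genes, log2 change and log2 level had a Pearson r of 0.46, given as a description of genes that share the same 6 libraries. The added 1 FPKM shrinks the changes of low genes, and the level is taken from the same libraries. Part of this r may therefore be built in.

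**Figure D2:**
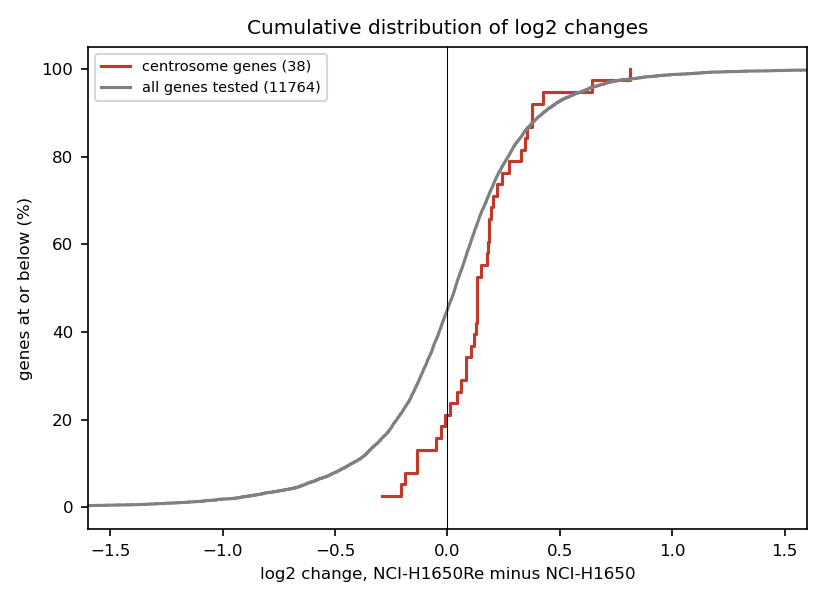
Cumulative share of genes (y axis, %) at or below each log2 change, NCI-H1650Re minus NCI-H1650 (x axis), for the 38 centrosome genes in red and the 11764 tested genes in grey. The centrosome curve lies to the right around its median of 0.13, against 0.03 for all genes, and reaches neither tail of the grey curve below -0.29 or above 0.81.

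The kinase and scaffold that start a new centriole differed little between the lines apart from STIL. STIL, which binds and activates PLK4 and brings SASS6 to the site of assembly, had 15.9, 15.0 and 13.0 FPKM in NCI-H1650Re, against 12.5, 10.9 and 9.80 FPKM in NCI-H1650. The lines did not overlap, and the means were 14.6 ± 1.50 FPKM in NCI-H1650Re and 11.1 ± 1.37 FPKM in NCI-H1650 (log2 change 0.38, SE 0.11). PLK4, the kinase that licenses a single new centriole, had 14.7, 13.7 and 11.1 FPKM in NCI-H1650Re, against 12.0, 12.2 and 10.2 FPKM in NCI-H1650. Its lines overlapped through NCI-H1650Re replicate 3 (log2 change 0.17, SE 0.11), and it was not called with all 6 libraries. Without that library PLK4 was called higher (log2 change 0.28). SASS6, the cartwheel protein at the core of the new centriole, had 6.11, 5.76 and 5.67 FPKM in NCI-H1650Re, against 5.25, 5.34 and 5.17 FPKM in NCI-H1650. Here the lines were narrowly apart, with a log2 change of 0.13 (SE 0.07), and the gene was not called.

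CENPJ, also named CPAP, builds the microtubule wall of the growing centriole. Its levels were 3.35, 3.32 and 2.40 FPKM in NCI-H1650Re, against 2.64, 2.79 and 2.05 FPKM in NCI-H1650. Replicate 3 was the lowest library in both lines, and the lines overlapped (log2 change 0.20, SE 0.13). CEP85, a STIL-binding protein, was the second most abundant of the genes, with 19.9, 19.5 and 18.0 FPKM in NCI-H1650Re and 16.2, 14.3 and 14.7 FPKM in NCI-H1650. All NCI-H1650Re libraries lay above all NCI-H1650 libraries, and the log2 change was 0.33 (SE 0.08).

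The scaffolds that recruit PLK4 did not share a direction, and their lines overlapped. CEP152 had a mean of 8.14 ± 0.586 FPKM in NCI-H1650Re and 7.09 ± 0.846 FPKM in NCI-H1650. Its partner CEP63 had 4.16 ± 0.170 FPKM in NCI-H1650Re and 3.75 ± 0.472 FPKM in NCI-H1650. CEP192, which also brings in mitotic kinases, had 6.31 ± 0.893 FPKM in NCI-H1650Re and 7.44 ± 1.06 FPKM in NCI-H1650, a log2 change of -0.21 (SE 0.12) with overlapping lines. None of these 3 was called.

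The factors of centriole elongation and conversion, CEP120, CEP135, CEP295 and CEP44, had log2 changes between -0.14 and 0.04, all with overlapping lines. CEP97, which caps the distal end with CCP110, had a log2 change of 0.06 (SE 0.10). CEP76, which limits repeated copying, had 3.12 ± 0.391 FPKM in NCI-H1650Re and 3.68 ± 0.316 FPKM in NCI-H1650 (log2 change -0.19, SE 0.10). Of the 14 assembly genes, 2 were called higher (STIL and CEP85), none lower, and 12 were not called, beside 16.6% of all tested genes called higher; their median log2 change was 0.09.

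**Figure D3:**
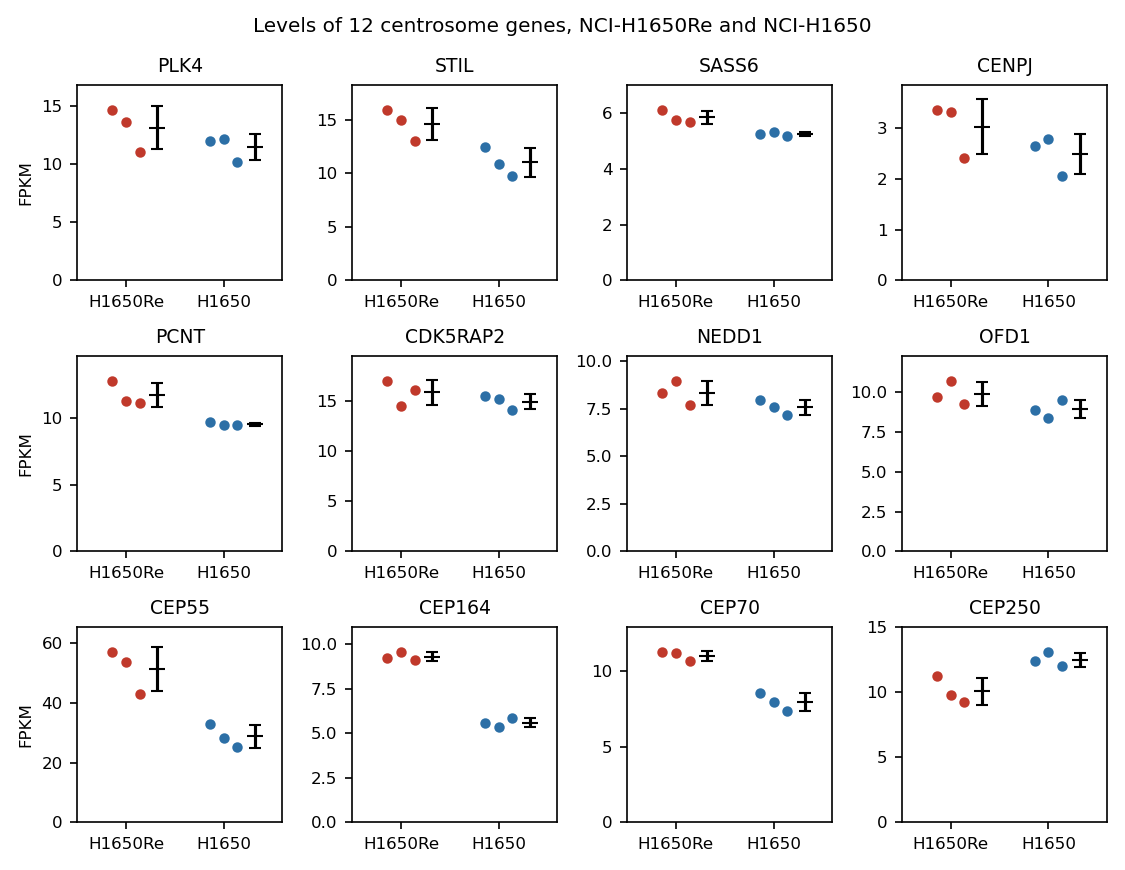
FPKM (y axis, from 0) of 12 centrosome genes in each library of NCI-H1650Re (red, left) and NCI-H1650 (blue, right), points in order of replicate number; bars give the mean and SD of 3 libraries. CEP55, CEP164, CEP70, STIL and PCNT do not overlap between the lines and are higher in NCI-H1650Re, and CEP250 does not overlap and is lower.

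All 6 genes of the pericentriolar material and of microtubule anchoring had positive changes, between 0.08 and 0.43 on the log2 scale, with a median of 0.13. CEP70, a gamma-tubulin-binding protein, had 11.3, 11.2 and 10.6 FPKM in NCI-H1650Re, against 8.58, 7.94 and 7.34 FPKM in NCI-H1650. The lines were well apart, with means of 11.0 ± 0.335 FPKM in NCI-H1650Re and 7.95 ± 0.620 FPKM in NCI-H1650 (log2 change 0.43, SE 0.08). PCNT, pericentrin, the large scaffold of this material, had 12.8, 11.3 and 11.2 FPKM in NCI-H1650Re, against 9.70, 9.48 and 9.47 FPKM in NCI-H1650. The NCI-H1650 libraries lay close together and below all NCI-H1650Re libraries (log2 change 0.27, SE 0.07).

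CDK5RAP2, which activates gamma-tubulin rings, had 16.9, 14.5 and 16.0 FPKM in NCI-H1650Re, against 15.5, 15.2 and 14.0 FPKM in NCI-H1650. Its lines overlapped, and the log2 change of 0.08 was as large as its SE of 0.08. NEDD1, which docks the rings at the centrosome and the spindle, had 8.31, 8.96 and 7.70 FPKM in NCI-H1650Re and 7.97, 7.62 and 7.17 FPKM in NCI-H1650 (log2 change 0.12, SE 0.08). NEDD1 overlapped through NCI-H1650Re replicate 3. CEP57, among the 3 most abundant CEP-numbered genes, had 15.3, 15.9 and 15.2 FPKM in NCI-H1650Re, against 14.8, 14.5 and 13.5 FPKM in NCI-H1650. Although its lines did not overlap, the log2 change was 0.11 (SE 0.07) and the gene was not called. CEP72, which helps to recruit gamma-tubulin rings, also did not overlap, with 6.71 ± 0.526 FPKM in NCI-H1650Re and 5.93 ± 0.108 FPKM in NCI-H1650.

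Among the named appendage and cilium genes CEP164 had the largest change. CEP164, the distal appendage protein that brings the kinase TTBK2 to the mother centriole, had 9.25, 9.56 and 9.09 FPKM in NCI-H1650Re, against 5.56, 5.37 and 5.85 FPKM in NCI-H1650. Every NCI-H1650Re library was far above every NCI-H1650 library, the means were 9.30 ± 0.239 FPKM in NCI-H1650Re and 5.59 ± 0.242 FPKM in NCI-H1650, and the log2 change was 0.64 (SE 0.07). The gene spans chr11:117314557-117413268 on the plus strand (GENCODE 29, GRCh38) and overlaps BACE1 on the other strand over 1703 bases.

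CEP128, a subdistal appendage protein, had 4.94, 3.92 and 3.50 FPKM in NCI-H1650Re, against 3.19, 3.06 and 2.78 FPKM in NCI-H1650. The lines did not overlap, but the spread within NCI-H1650Re was wide (log2 change 0.34, SE 0.11) and the gene was not called. CEP78, a centriole protein needed for normal cilia, had 4.40, 3.78 and 3.69 FPKM in NCI-H1650Re, against 3.31, 3.47 and 2.81 FPKM in NCI-H1650, again apart and not called (log2 change 0.24, SE 0.10). OFD1, of distal centrioles and satellites, had 9.70, 10.7 and 9.28 FPKM in NCI-H1650Re, against 8.87, 8.39 and 9.54 FPKM in NCI-H1650. Its lines overlapped, with a log2 change of 0.13 (SE 0.08).

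Among the named genes, the other distal appendage genes, CEP83 and CEP89, had smaller differences than CEP164. CEP83, which the other distal appendage proteins need in order to assemble, had 5.77 ± 0.568 FPKM in NCI-H1650Re and 4.94 ± 0.311 FPKM in NCI-H1650, with overlapping lines. CEP89 had 12.7 ± 1.21 FPKM in NCI-H1650Re and 11.0 ± 0.273 FPKM in NCI-H1650, without overlap, and was not called. Both had a log2 change of about 0.19 or less (0.19 for CEP83 and 0.18 for CEP89), against 0.64 for CEP164. CEP164 was not alone among distal appendage genes. SCLT1, which is not among the named genes and is given below, had a log2 change of 0.61, close to that of CEP164. The median was 0.15 for the list of 13 tested appendage and linker proteins that holds SCLT1.

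A further pair of genes did not overlap and were higher in NCI-H1650Re, CEP170 of the subdistal appendages (log2 change 0.22) and CEP290 of the ciliary transition zone (log2 change 0.13). Neither was called. CEP41, a cilium protein linked to tubulin glutamylation, CEP131, a satellite protein, CEP350 and CEP19 had overlapping lines and log2 changes between -0.03 and 0.19. CEP162 had 0.523 ± 0.0577 FPKM in NCI-H1650Re and 0.660 ± 0.134 FPKM in NCI-H1650. CEP126 had 0.780 ± 0.271 FPKM in NCI-H1650Re and 0.953 ± 0.110 FPKM in NCI-H1650. Both were under the minimum of 1 FPKM and were not tested. Of the 13 tested appendage, satellite and cilium genes, 2 were called higher, among them CEP164, and none lower, 7 did not overlap, 12 had positive changes, and the median was 0.19. Over all tested genes, 16.6% were called higher, 26.3% were higher without overlap and 54.9% had positive changes.

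CEP55 had both the highest level and the largest change. It carries the ESCRT machinery to the midbody, where daughter cells separate, and is bound to centrosomes outside mitosis. It had 57.0, 53.8 and 43.1 FPKM in NCI-H1650Re, against 32.9, 28.2 and 25.2 FPKM in NCI-H1650. The lowest NCI-H1650Re library was well above the highest NCI-H1650 library, and the means of 51.3 ± 7.28 FPKM in NCI-H1650Re and 28.8 ± 3.90 FPKM in NCI-H1650 gave a ratio of 1.78 (log2 change 0.81, SE 0.13). The gene lies at chr10:93496632-93529092 on the plus strand (GENCODE 29, GRCh38).

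CEP250, also named C-Nap1, anchors the fibres that hold the centrioles of a pair together between divisions, and was the only one of the 38 genes that was lower without overlap. It had 11.2, 9.75 and 9.20 FPKM in NCI-H1650Re, against 12.4, 13.1 and 12.0 FPKM in NCI-H1650. The lines were apart by less than 1 FPKM at their nearest libraries, and the means were 10.1 ± 1.04 FPKM in NCI-H1650Re and 12.5 ± 0.533 FPKM in NCI-H1650 (log2 change -0.29, SE 0.09). The linker fibre protein CEP68 had 3.80 ± 0.159 FPKM in NCI-H1650Re and 3.53 ± 0.209 FPKM in NCI-H1650, with overlap. NEK2, the kinase that dissolves this linker, was higher in NCI-H1650Re and is given below with the cell cycle genes.

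Of the 2 genes with no well described role, CEP95 had 7.32, 7.25 and 6.87 FPKM in NCI-H1650Re, against 5.40, 5.66 and 5.08 FPKM in NCI-H1650. The lines did not overlap (log2 change 0.35, SE 0.07). CEP95 lies next to DDX5 on the other strand and overlaps it over 1612 bases, and the sources used here do not say whether reads were counted by strand. This limit is not particular to CEP95. Several of the other centrosome genes also overlap genes on the other strand, among them CEP76 with PSMG2 over 40945 bases and CEP68 with RAB1A over 16309 bases. CEP112 had 2.43 ± 0.764 FPKM in NCI-H1650Re and 2.72 ± 0.374 FPKM in NCI-H1650, with overlapping lines.

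In the order of levels, CEP55 came first in both lines, followed by CEP85, CDK5RAP2 and CEP57. In NCI-H1650Re CEP85 (19.1 ± 1.02 FPKM) lay above CDK5RAP2 (15.8 ± 1.24 FPKM) and CEP57 (15.4 ± 0.372 FPKM), the last pair within their spread. In NCI-H1650 CEP85 (15.0 ± 1.01 FPKM), CDK5RAP2 (14.9 ± 0.767 FPKM) and CEP57 (14.3 ± 0.678 FPKM) did not differ beyond their spread.

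Leaving out single libraries showed which calls rest on all 6. CEP55, CEP164, CEP70 and CEP95 were called in each of the 6 fits that leave out a library. CEP85 lost its call when replicate 2 of either line was left out. STIL was lost without NCI-H1650Re replicates 1 or 2 or NCI-H1650 replicates 2 or 3. PCNT was called in 1 of the 6 fits, the one without NCI-H1650Re replicate 3, and CEP250 in 1, the one without NCI-H1650Re replicate 1. Calls were also gained: without NCI-H1650Re replicate 3, CEP128, CEP83 and PLK4 were called higher. Signs stayed the same in all 6 fits for the 9 genes called with all libraries. Log2 changes ran from 0.30 to 0.46 for STIL, from 0.22 to 0.31 for PCNT and from -0.36 to -0.23 for CEP250.

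The centrosome genes also varied together between libraries of the same line. NCI-H1650Re replicate 3 was the lowest of its line for 29 of the 38 genes, against 44.6% of all tested genes, and NCI-H1650 replicate 3 was the lowest of its line for 31 of the 38, against 42.9%. NCI-H1650Re replicate 1 was the highest of its line for 27 of the 38, against 39.9% of all tested genes. Summed levels of 11 proliferation markers followed the same order within each line, with 1030.9, 966.9 and 854.0 FPKM in NCI-H1650Re replicates 1, 2 and 3 and 899.4, 881.3 and 811.8 FPKM in NCI-H1650 replicates 1, 2 and 3. The proliferation sums of the lines overlapped and the centrosome sums did not. Of the 11 markers, 6 had positive and 5 negative log2 changes, so their sum mixes both directions. The part of these markers in the centrosome values was not tested. Replicate 3 also had the lowest estimated depth of its line, 18.1 M fragments in NCI-H1650Re and 17.0 M in NCI-H1650. The part of depth was not tested either. Without both replicate 3 libraries, 30 of the 38 centrosome genes did not overlap, 78.9% against 74.8% of all genes tested there, since fewer libraries overlap less by construction. The same 9 and CEP128 were called, 26.3% against 43.2% of all genes, with 27 positive and 11 negative changes.

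**Figure D4:**
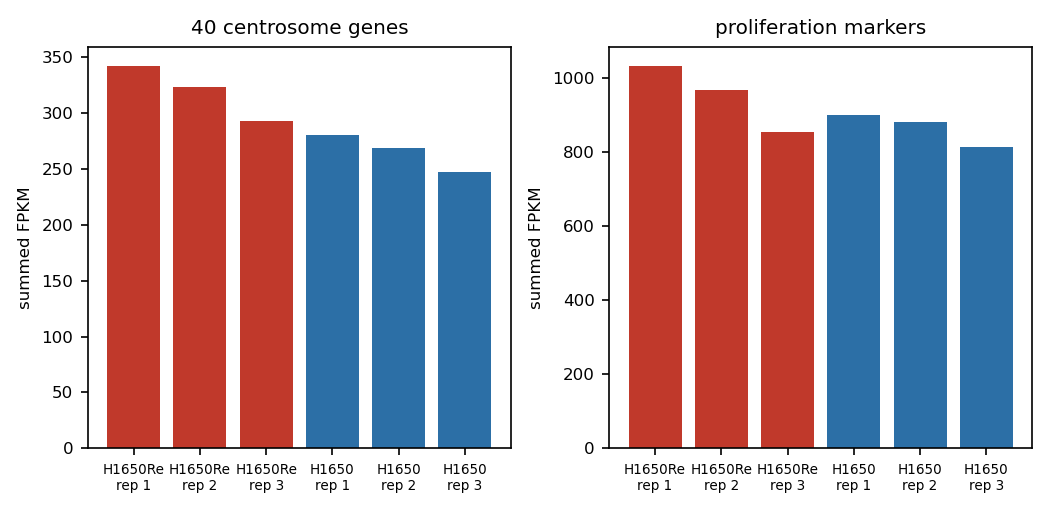
Summed FPKM (y axis, from 0) of the 40 centrosome genes (left panel) and of 11 proliferation markers (right panel) in each library, NCI-H1650Re in red and NCI-H1650 in blue. The centrosome sums run from 293.2 to 342.1 in NCI-H1650Re and from 247.6 to 280.3 in NCI-H1650, and replicate 3 is the lowest of its line in both panels.

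Genes that are not among the 40 were read from lists of other centrosome proteins, of cell cycle kinases and cyclins, of genes that sense centrosome number and of proliferation markers. Of 92 genes tested on these lists, 22 were higher and 6 lower in NCI-H1650Re by limma with Benjamini-Hochberg adjustment over all tested genes, 30.4% in all, beside 30.5% of all genes. The count fell to 14 without NCI-H1650Re replicate 2 and to 13 without NCI-H1650 replicate 2.

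Cell cycle kinases and their partners held the largest of these rises, with 6 of 10 tested genes higher and 1 lower. AURKA, the mitotic kinase of centrosome maturation, averaged 94.1 ± 8.54 FPKM in NCI-H1650Re and 53.2 ± 5.34 FPKM in NCI-H1650 (log2 change 0.81, limma adjusted p = 0.00141). CCNB1, the mitotic cyclin B1, averaged 116.1 ± 14.9 FPKM in NCI-H1650Re and 70.8 ± 8.42 FPKM in NCI-H1650 (log2 change 0.71, limma adjusted p = 0.0046). TPX2, which activates AURKA on the spindle, averaged 157.5 ± 16.3 FPKM in NCI-H1650Re and 98.4 ± 11.6 FPKM in NCI-H1650 (log2 change 0.68, limma adjusted p = 0.00395). NEK2 averaged 30.9 ± 3.36 FPKM in NCI-H1650Re and 20.4 ± 1.65 FPKM in NCI-H1650 (log2 change 0.57, limma adjusted p = 0.00512). These 4 genes did not overlap between the lines and were called in each fit that leaves out a library. CCNE1, the cyclin of S phase entry, was lower, with 17.8 ± 0.907 FPKM in NCI-H1650Re and 21.8 ± 1.37 FPKM in NCI-H1650 (log2 change -0.27, limma adjusted p = 0.0285), but was called in 2 of the 6 fits that leave out a library. PLK1, with 82.2 ± 10.7 FPKM in NCI-H1650Re and 97.0 ± 7.92 FPKM in NCI-H1650, and CDK1, with 25.6 ± 3.58 FPKM in NCI-H1650Re and 34.2 ± 6.71 FPKM in NCI-H1650, did not pass with all 6 libraries. PLK1 passed as lower without NCI-H1650Re replicate 1 (limma adjusted p = 0.0444) and CDK1 without NCI-H1650 replicate 3 (limma adjusted p = 0.0176) and without both replicate 3 libraries (limma adjusted p = 0.00441).

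Proliferation markers were mixed, with 4 of 11 higher and 1 lower. BUB1, of the spindle checkpoint, averaged 42.6 ± 6.08 FPKM in NCI-H1650Re and 24.4 ± 2.90 FPKM in NCI-H1650 (log2 change 0.77, limma adjusted p = 0.00395). FOXM1, a transcription factor of late cell cycle genes, averaged 61.7 ± 6.66 FPKM in NCI-H1650Re and 37.9 ± 1.72 FPKM in NCI-H1650 (log2 change 0.69, limma adjusted p = 0.00184). MKI67 averaged 69.1 ± 12.9 FPKM in NCI-H1650Re and 61.8 ± 5.81 FPKM in NCI-H1650, and PCNA 142.7 ± 11.4 FPKM in NCI-H1650Re and 153.6 ± 5.37 FPKM in NCI-H1650, neither past the threshold. TOP2A and MYBL2 passed as higher and CCNE2 as lower, with log2 changes of 0.53, 0.26 and -0.32, and each lost its call in 2 or more of the fits that leave out a library.

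Of 21 other centriole proteins tested, 4 were higher and 2 lower. TUBE1, epsilon-tubulin, averaged 5.03 ± 1.27 FPKM in NCI-H1650Re and 2.58 ± 0.0569 FPKM in NCI-H1650 (log2 change 0.73, limma adjusted p = 0.00876). CNTROB, centrobin, a protein of the daughter centriole, averaged 21.9 ± 2.65 FPKM in NCI-H1650Re and 14.6 ± 0.199 FPKM in NCI-H1650 (log2 change 0.55, limma adjusted p = 0.00456). POC5 and POC1A were the other rises, with log2 changes of 0.48 and 0.33 and calls in 4 and 2 of the 6 fits that leave out a library. CCP110, the distal cap protein that works with CEP97, had 9.80, 9.34 and 8.91 FPKM in NCI-H1650Re, against 16.3, 15.6 and 14.2 FPKM in NCI-H1650 (log2 change -0.66, limma adjusted p = 0.0012). SPICE1 was the other fall (log2 change -0.29, limma adjusted p = 0.0385), called in 1 of the 6 fits that leave out a library and not with quantile scaling.

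Of the 13 appendage and linker proteins tested, 4 were higher and none lower. SCLT1, a distal appendage protein like CEP164, averaged 8.18 ± 0.381 FPKM in NCI-H1650Re and 5.003 ± 0.340 FPKM in NCI-H1650 (log2 change 0.61, limma adjusted p = 0.00149). ODF2, of the subdistal appendages, averaged 20.1 ± 4.05 FPKM in NCI-H1650Re and 12.8 ± 1.16 FPKM in NCI-H1650 (log2 change 0.60, limma adjusted p = 0.019), and was called in 2 of the 6 fits that leave out a library. NEK2 and TCHP were the remaining calls, TCHP with a log2 change of 0.23, a call in 1 of those 6 fits and none with median-of-ratios or quantile scaling, all genes kept or no variance trend.

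The gamma-tubulin ring and augmin list had 3 of 16 genes higher and none lower. TUBG1, gamma-tubulin itself, averaged 110.3 ± 6.18 FPKM in NCI-H1650Re and 88.8 ± 2.59 FPKM in NCI-H1650 (log2 change 0.31, limma adjusted p = 0.0131), and was called in 4 of the 6 fits that leave out a library. MZT1 and HAUS2, with log2 changes of 0.43 and 0.36, were no longer called with median-of-ratios or quantile scaling. Of 12 satellite and pericentriolar proteins none was higher, and AKAP9, a scaffold related to pericentrin, and FOPNL were lower. AKAP9 averaged 4.83 ± 0.243 FPKM in NCI-H1650Re and 6.74 ± 0.223 FPKM in NCI-H1650 (log2 change -0.41, limma adjusted p = 0.00538). None of 7 genes that sense centrosome loss or excess, such as USP28 and TP53BP1, was called by limma with Benjamini-Hochberg adjustment, and none had an unadjusted p under 0.05; without NCI-H1650Re replicate 3, 1 of them was called lower.

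Relatives whose names carry a suffix fall outside the naming rule. CEP170B averaged 17.1 ± 0.598 FPKM in NCI-H1650Re and 11.3 ± 1.17 FPKM in NCI-H1650 (log2 change 0.56, limma adjusted p = 0.00323), beside 0.22 for CEP170. CEP57L1 averaged 2.72 ± 0.267 FPKM in NCI-H1650Re and 1.70 ± 0.319 FPKM in NCI-H1650 (log2 change 0.47, limma adjusted p = 0.0188), beside 0.11 for CEP57, and lost its call in 3 of the 6 fits that leave out a library. The difference between relatives was not tested. CEP295NL was listed at 118.3 ± 20.4 FPKM in NCI-H1650Re and 123.1 ± 1.18 FPKM in NCI-H1650, above every gene of the naming rule, but it lies inside TIMP2 on the same strand over 32308 bases, and shares 198 of its 2758 exon bases with it. How reads of the shared span were assigned is not stated in the labels. CEP85L was below 1 FPKM in all 6 libraries.

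The changes of the 38 genes, which lie on 20 chromosomes, were set beside those of their neighbours, taken as the median log2 change of the 10 nearest tested genes on each side. This median lay between -0.33, at CEP120, and 0.23, at CEP19, and 1 gene of 38, CEP19, lay just outside the range that holds the middle of all tested genes, from the 2.5 to the 97.5 percentile (-0.42 to 0.23). Over the 38 genes, own change and neighbour median had a Pearson r of 0.02, against 0.33 over all tested genes, as a description of genes that share libraries. CEP55, CEP164 and CEP250 had neighbour medians of -0.04, 0.03 and 0.04. The genes outside the rule that were lowest differed in this. CCP110 at chr16:19523811-19553408 and FOPNL at chr16:15865720-15888625 had neighbour medians of -0.81 and -0.72, as low as their own changes of -0.66 and -0.63. FOPNL, since renamed CEP20, averaged 17.8 ± 2.07 FPKM in NCI-H1650Re and 28.3 ± 3.91 FPKM in NCI-H1650 (limma adjusted p = 0.00781).

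**Figure D5:**
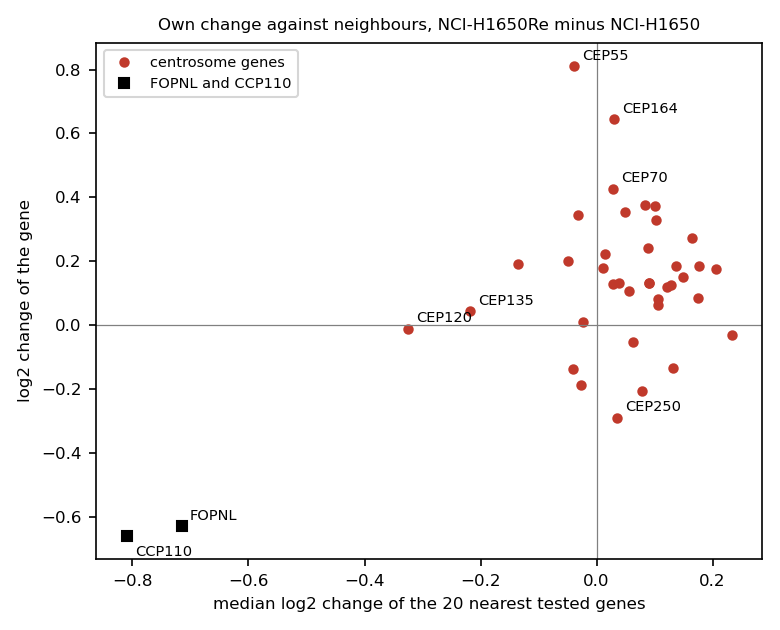
Log2 change of each of the 38 centrosome genes (y axis) against the median log2 change of its 20 nearest tested genes (x axis), NCI-H1650Re minus NCI-H1650, with CCP110 and FOPNL as black squares. CEP55 and CEP164 lie high over neighbour medians near 0, and CCP110 and FOPNL lie low over low neighbours.

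The authors' deposited table gives its own log2 fold changes, NCI-H1650Re over NCI-H1650, and false discovery rates (FDR). Its FDR was under 0.05 for 13.0% of 12659 genes on the higher side and 14.9% on the lower. Of the 40 centrosome genes, 7 were higher at that level in the authors' deposited table, among them CEP164 (FDR 3.46e-08), CEP55 (1.22e-07), CEP70 (0.00696), STIL (0.0177), CEP85 (0.0262) and CEP95 (0.0412). CEP250 (FDR 0.0194) was the gene lower in the authors' deposited table, and PCNT had an FDR of 0.0601 there. Fold changes in the authors' deposited table ran from -0.37 to 0.80 on the log2 scale, and none of the 40 was among the 860 genes marked there as regulated, whose smallest absolute log2 fold change was 1.0.

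The labels of the lines were set against lineage markers. Of 8 small cell lung cancer markers listed, 3 were analysed here. CHGA, chromogranin A of secretory granules, averaged 3.39 ± 1.55 FPKM in NCI-H1650Re and 0.563 ± 0.590 FPKM in NCI-H1650 (log2 change 1.50, limma adjusted p = 0.0101). SYP averaged 1.65 ± 0.240 FPKM in NCI-H1650Re and 1.23 ± 0.159 FPKM in NCI-H1650, and DLL3 4.10 ± 0.695 FPKM in NCI-H1650Re and 3.13 ± 0.156 FPKM in NCI-H1650, neither past the threshold, and CHGA and DLL3 did not overlap between the lines. The other 5 are not analysed here. KRT7, a keratin of lung epithelium, was abundant in both lines, at 1012 ± 77.9 FPKM in NCI-H1650Re and 799.7 ± 124.4 FPKM in NCI-H1650. EPCAM, an epithelial adhesion protein, averaged 104.1 ± 10.4 FPKM in NCI-H1650Re and 148.0 ± 14.0 FPKM in NCI-H1650 (log2 change -0.50, limma adjusted p = 0.00812). Among 7 markers of fibroblasts, blood and vessels, COL1A1 was the one analysed here, at 1.96 ± 0.835 FPKM in NCI-H1650Re and 1.01 ± 0.0351 FPKM in NCI-H1650.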

How the data were processed

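Poly(A) RNA of both lines was extracted with a miRNeasy kit and made into libraries with a BGI mRNA kit, per the labels' protocols. Tools in the submitters' processing notes are HISAT2, Bowtie2, RSEM and DESeq2, with no version, and the build there is mm10 although the deposited identifiers are human; which human build was used, the sources used here do not say. The authors deposited FPKM of 12659 genes in every library. Read counts were deposited by the authors for the 860 genes marked as regulated, none of them described here as a member. The FDR, an adjusted p-value, and the log2 fold change of each gene are the authors', per the file headers.

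The members, gene lists and motifs were chosen with earlier results of these data known. FPKM are not counts, so limma was fitted on log2(FPKM + 1) over the 11764 genes that averaged 1 FPKM or more in one line or the other. The model had line as its only term and a variance trend, with Benjamini-Hochberg adjustment at 0.05. Depth was estimated from the ratio of deposited counts to FPKM, in 129 genes between libraries and in 7 single-transcript genes for the level. Positions came from GENCODE 29 and promoters from RefSeq. Members are named, except 1 that is not reported here and counts only in the totals; library values are given for the 8 listed factors, for CEP-numbered genes with the largest non-overlapping changes and for the 3 most abundant, and up to 4 called genes are named per list. POC1A, SPICE1, CCNE1, MYBL2, PLK1, CDK1, MKI67, PCNA, SYP, DLL3, KRT7 and COL1A1, which stand on the same lists, are named in the text outside this rule, a choice made after their values were seen; no list was changed. The test was checked on simulated data with planted changes. It called 64% of planted log2 changes of 0.5, 84% of those of 1 and 100% of those of 2. A gene not called may still differ. In the draw used 8.9% of calls were false, above the threshold. Only 50 genes of 11546 were planted at each size, while 30.5% of tested genes were called in the data. The simulated shares are therefore not the rates of the real fit. Alternatives were other pseudocounts (0.1 and 0.01), all genes kept, a minimum of 5 FPKM, 2 further scalings (median-of-ratios, quantile), a fit with no variance trend, a replicate block, libraries left out, and names with a suffix counted as members. R 4.3.3, limma 3.58.1, Python 3.11.15, pandas 2.3.3 and matplotlib 3.10.9 were used.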

Additional observations from a re-analysis of the deposited data

How the results depend on the processing

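With single libraries left out, genes called by limma numbered 1785 (NCI-H1650 replicate 2 left out) to 4478 (NCI-H1650Re replicate 3 left out), against 3587 with all 6. Leaving out NCI-H1650Re replicate 2 gave 1898, and leaving out NCI-H1650 replicate 1 gave 2386. Centrosome genes called numbered 4 (without either replicate 2) to 11 (without NCI-H1650Re replicate 3), against 9; those higher 4 to 11, against 8, and those lower 0 to 1, against 1. Centrosome genes without overlap numbered 19 to 24 with single libraries left out, against 17. Without both replicate 3 libraries they numbered 30, 78.9% against 74.8% of all genes tested there. With fewer libraries lines overlap less by construction. The share over all genes was not taken for the single fits, so nothing is read from their counts. The median log2 change ran from 0.11 to 0.19, and called companion genes from 13 to 31, against 28. With pseudocounts, filters, scalings, no variance trend or suffix names, all 9 centrosome calls were kept. Of 556 log2 changes of centrosome genes under 15 alternatives, 552 moved by less than the spread between libraries and 0 called ones turned; the others were CEP164 at pseudocounts 0.1 and 0.01 (0.72 and 0.73), CEP95 at 0.01 (0.41) and CEP97 without both replicate 3 libraries (-0.04). The log2 change crossed 0 under some alternative for 7 genes, none of them called: CEP350, CEP112, CEP295, CEP120, CEP19, CEP135 and CEP97. The cause was not tested. Same-numbered libraries deviated together with correlations of 0.173, -0.037 and 0.211, and not every library correlated best with its own number, so the numbers were not taken as pairs. With the replicate block, 3522 genes and 10 centrosome genes were called, the 9 and CEP128; PLK1 and CDK1 were then called lower, and TCHP and SPICE1 were not called. Depth limits genes near 1 FPKM such as CEP41 and CEP19.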
